A study of Mus musculus with 6 samples.

Results

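The insulin-like growth factor (IGF) system was examined here through 10 genes: the ligands Igf1 and Igf2, the receptors Igf1r, Igf2r and Insr, the docking proteins Irs1 and Irs2, and the binding proteins Igfbp3, Igfbp4 and Igfbp7. Members were taken as every probe set, the group of array probes that reports 1 transcript, whose platform annotation named exactly 1 of these symbols. All 10 genes were found among the 18193 genes named on the array, on 29 probe sets. IGF1 and IGF2 are secreted peptides that activate the tyrosine kinase IGF1R, and insulin and IGF2 also act on the related insulin receptor. The activated receptors recruit IRS proteins, which pass the signal to PI3K, AKT and mTOR and restrain FOXO factors. IGF2R carries no kinase and removes IGF2 from the cell surface, while the secreted IGF-binding proteins hold the ligands and limit or extend their action. In mice, IGF signalling is known for driving the growth of fetal megakaryocyte progenitors.

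The progenitors came from C57BL/6 mice of the GATA1s genotype, in which the blood transcription factor GATA1 is made in a form that lacks its amino-terminal end. Both groups carried this genotype, and the full-length form was not examined here. They were bone marrow from adults aged 12 to 18 weeks, with 3 arrays, and fetal liver at E13.5, with 3 arrays. In both, cells were sorted as lineage-negative, Sca-1-negative, c-kit-positive, CD150-positive and CD41-positive, and their total RNA was hybridised to Affymetrix arrays. The values are MAS5 signals, a linear measure of brightness on which every array was scaled to the same trimmed mean. Tissue and age change together here and cannot be told apart. The labels name biological replicates without the number of animals behind each, and the p-values cover only the spread among the samples given, which may be technical.

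The bone marrow arrays had median signals between 65.9 and 74.6, and the fetal liver arrays between 52.0 and 59.1. The sort marker genes were clearly measured in both tissues. Itga2b, which encodes CD41, averaged 4418 ± 540.0 in bone marrow against 4521 ± 1049 in fetal liver (SD, n = 3 each), and its log2 fold change was -0.012 ± 0.16 (SE, limma adjusted p = 0.965). All log2 fold changes are bone marrow minus fetal liver. For Slamf1, the CD150 gene, the log2 fold change was 0.073 (limma adjusted p = 0.895), and -0.42 (limma adjusted p = 0.0314) without fetal liver replicate 1. For Kit, the c-kit gene, it was 0.62 (limma adjusted p = 0.0170), a call lost in 5 of 17 settings (limma adjusted p up to 0.151), among them median centring and the fits without bone marrow replicate 2 or 3 or fetal liver replicate 3. Of 7 tested megakaryocyte markers 6 were not called and 1 was lower in bone marrow. Transcripts of other blood lineages were higher in bone marrow: 8 of 8 granulocyte, 7 of 7 macrophage, 5 of 6 B-lymphoid and 3 of 4 erythroid markers tested. Among all genes read on their brightest tested probe set 33.2% were called, 17.3% higher and 15.9% lower. Of the lineage markers, Ltf, Adgre1, Timd4, Vcam1, Cd79a, Dntt, Ebf1, Igll1 and Epb42 had fetal liver geometric means under the level of the filter described next. They entered the test through bone marrow, so the counts are partly set by that filter.

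Probe sets entered the test when their mean log2 signal over the 6 arrays lay above the 40th percentile, which corresponds to a geometric mean signal of 22.9. That left 16 of the 29 member probe sets, on 6 of the 10 genes. Igf2, Irs1, Igfbp3 and Igfbp7 had no probe set in the test. A signal of 10.6, the 95th percentile of 27 bacterial control probe sets for which no RNA was spiked in, is used below as the control level. Differences were tested with limma, with adjusted p below 0.05 as a call. Of the 16 tested member probe sets 8 were called, 6 higher and 2 lower in bone marrow. Among all 27022 tested probe sets 26.8% were called, 15.0% higher and 11.8% lower. The tissues did not overlap, array by array, on 11 of the 16, 6 with bone marrow above and 5 with bone marrow below. Over all tested probe sets that held for 43.0%, 22.0% with bone marrow above and 21.0% with bone marrow below. The 6 higher calls were 5 probe sets of Igfbp4 and 1 of Igf1, and the 2 lower calls were on Igf1r, so the calls cover 3 genes. Scaling moved the split: median centring, which shifted the median of all probe sets to -0.34, gave 6 higher and 8 lower (adding 2 probe sets each of Igf1r and Igf2r and those of Insr and Irs2), and quantile normalization 6 higher and 4 lower. Probe sets of 1 gene are read from the same RNA and are not independent of each other. The median log2 fold change was -0.25 over the 16, against -0.00027 over all tested probe sets. With no filter it was 0.32 over the 29 member probe sets, against -0.0055 over all 45037. Its sign thus depends on which probe sets are counted, and Igfbp4 holds 6 of the 16 and Igf1r 5.

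**Figure D1:**
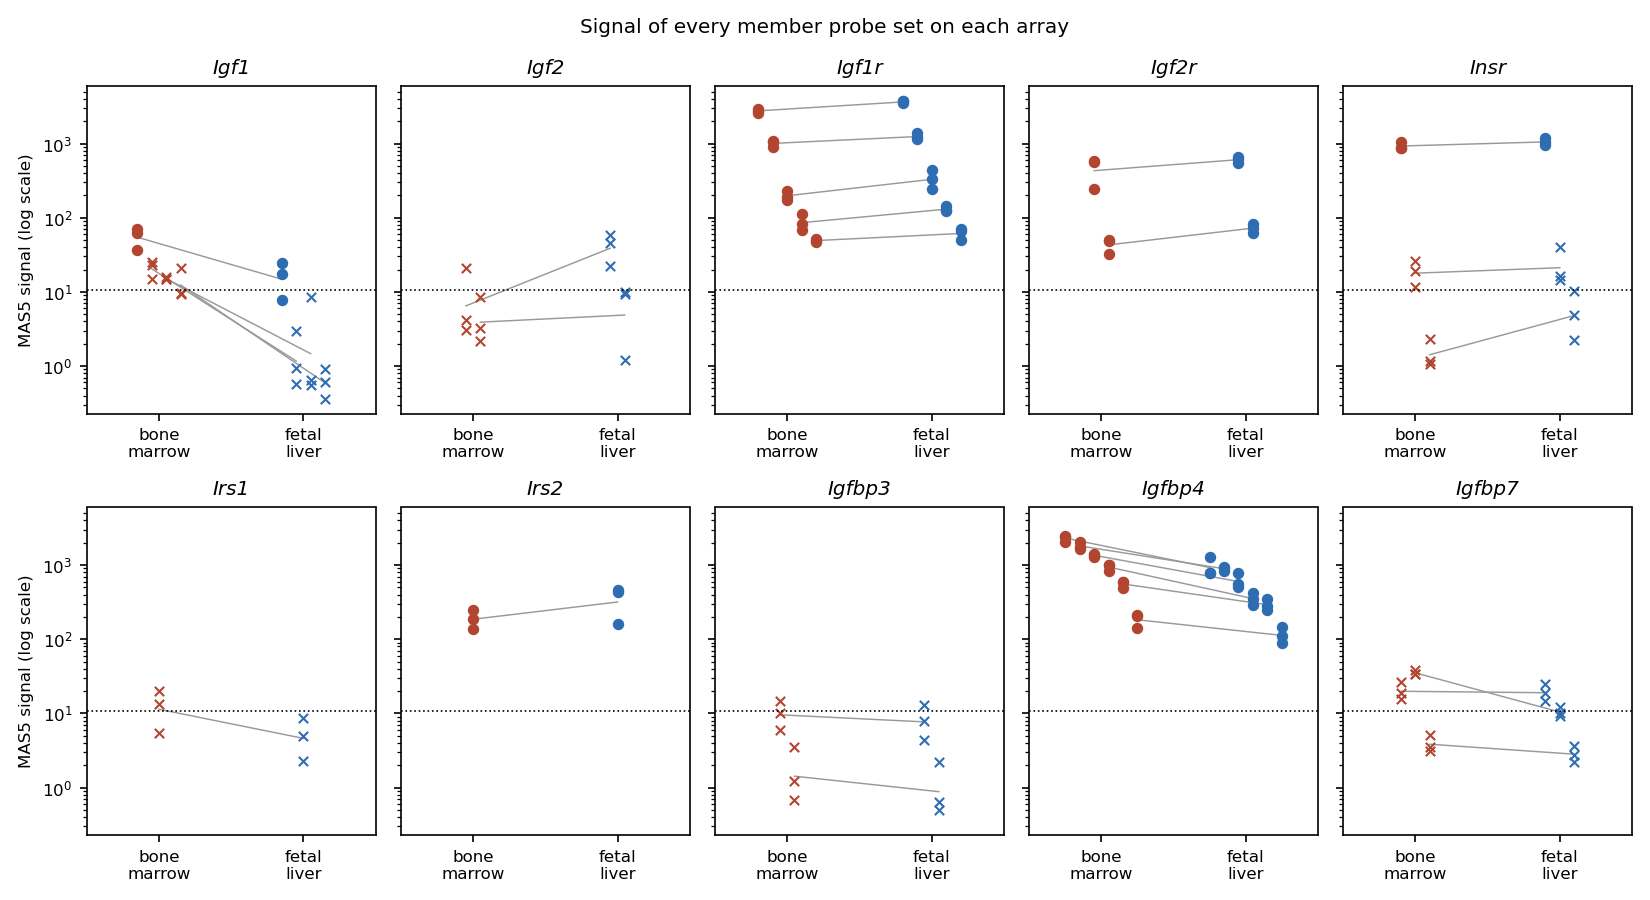
MAS5 signal (log axis) of each member probe set on each array, bone marrow at left and fetal liver at right in every panel. Each column of 3 points is 1 probe set and a grey line joins its geometric means; circles entered the test, crosses did not, and the dotted line is the control level of 10.6. Igf1 and Igfbp4 lines slope down to the fetal liver side and those of Igf1r slope up, while Igfbp3 stays around or under the control level.

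Genes called in opposite directions are shown with the stretch before their annotated start, taken from RefSeq on GRCm38.p6; 9 of the 10 members had an entry. Each line gives the 250 bases before the start of Igf1 (chr10:87860861-87861110, plus strand), Igfbp4 (chr11:99040994-99041243, plus strand) and Igf1r (chr7:67952007-67952256, plus strand). Capitals mark GATA-type hexamers (the letters AGATAA with the variant AGATAG, and the letters TGATAA with the variant TGATAG) or the box TATAAA, on either strand.
Igf1: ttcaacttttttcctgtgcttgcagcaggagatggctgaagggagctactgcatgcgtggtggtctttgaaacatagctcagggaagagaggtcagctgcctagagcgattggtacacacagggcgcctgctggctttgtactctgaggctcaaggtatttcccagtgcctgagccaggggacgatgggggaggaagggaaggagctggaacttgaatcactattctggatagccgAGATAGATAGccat
Igfbp4: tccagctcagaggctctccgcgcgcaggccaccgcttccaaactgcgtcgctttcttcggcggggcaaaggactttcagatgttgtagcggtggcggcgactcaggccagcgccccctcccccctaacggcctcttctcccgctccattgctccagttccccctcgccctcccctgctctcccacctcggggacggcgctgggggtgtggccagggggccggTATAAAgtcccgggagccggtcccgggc
Igf1r: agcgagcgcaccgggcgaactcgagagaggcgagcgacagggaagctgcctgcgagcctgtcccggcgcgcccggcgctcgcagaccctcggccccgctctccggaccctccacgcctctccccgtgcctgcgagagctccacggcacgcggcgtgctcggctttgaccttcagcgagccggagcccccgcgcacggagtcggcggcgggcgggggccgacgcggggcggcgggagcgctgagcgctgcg
The Igf1 stretch holds AGATAG 2 times, overlapping by 2 bases and beginning 14 and 10 bases before the start. The Igfbp4 stretch holds TATAAA beginning 28 bases before the start, and the Igf1r stretch holds neither. Of 32851 such stretches in the table, 26.5% hold a GATA-type hexamer and 12.4% hold TATAAA. The dinucleotide CG occurs 5 times before Igf1, 22 times before Igfbp4 and 42 times before Igf1r, against a median of 6 in all stretches. These matches describe letters only, and binding was not measured.

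Igf1, the ligand that binds IGF1R, was called higher in bone marrow on its 1 tested probe set, at low signals. The tissues did not overlap on any of its 4 probe sets, but 3 were untested, with every fetal liver array under the control level. The 22.0% given above for bone marrow above without overlap covers tested probe sets only. Probe set 1452014_a_at gave 69.8, 36.9 and 63.04 on the bone marrow arrays, against 24.2, 7.76 and 17.3 on the fetal liver arrays. Every bone marrow array lay above every fetal liver array, and 1 fetal liver array was under the control level. Its mean was 56.6 ± 17.4 in bone marrow against 16.4 ± 8.26 in fetal liver (SD, n = 3 each), 3.68-fold higher in bone marrow, with a log2 fold change of 1.88 ± 0.48 (SE, limma adjusted p = 0.0165). The geometric mean in fetal liver was 14.8, below the filter's 22.9, so this probe set entered the test through its bone marrow arrays. The call was lost without bone marrow replicate 1 (log2 fold change 1.70, limma adjusted p = 0.0568) or replicate 3 (1.78, limma adjusted p = 0.0685). In a bulk sample, fewer cells that make a transcript and less of it per cell cannot be told apart.

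The other 3 Igf1 probe sets were too dim to be tested. Probe set 1419519_at gave 14.8, 22.9 and 25.1 on the bone marrow arrays, against 0.948, 2.92 and 0.571 on the fetal liver arrays, so all fetal liver arrays were under the control level and bone marrow was at least 1.92-fold higher. Probe sets 1437401_at and 1434413_at gave bounds of at least 1.42-fold and 1.16-fold, the second with 2 bone marrow arrays under the control level. In a fit with no filter, 1419519_at and 1434413_at were called higher in bone marrow (limma adjusted p = 0.00570 and 0.00400). Probe set 1437401_at was not (limma adjusted p = 0.0530), and all 3 had every fetal liver array under the control level. In mice, macrophages are a known source of IGF1. The macrophage markers summed to 2374 to 2919 in bone marrow, against 376 to 479 in fetal liver, and 3 of 12 were under the control level on every fetal liver array. Csf1r, the macrophage growth factor receptor, averaged 834 ± 77.3 in bone marrow against 83.1 ± 47.01 in fetal liver, C1qb, a complement chain, 319 ± 25.03 in bone marrow against 29.2 ± 12.99 in fetal liver, and Cd68, a lysosomal membrane protein, 589 ± 148 in bone marrow against 199.5 ± 26.4 in fetal liver. Their part in the Igf1 difference was not tested.

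Igf2, the fetal growth ligand expressed from the paternal allele, was dim in both tissues. Probe set 1448152_at gave 20.96, 3.06 and 4.23 on the bone marrow arrays, against 45.6, 22.1 and 58.01 on the fetal liver arrays. The tissues did not overlap, but bone marrow replicate 1 came within a few units of the lowest fetal liver array, and the other 2 bone marrow arrays were under the control level. Bone marrow was at least 2.91-fold lower than fetal liver. This probe set missed the filter and was not tested. In the fit with no filter its log2 fold change was -2.58 ± 0.76 (SE, limma adjusted p = 0.0439). The other Igf2 probe set, 1415931_at, gave 3.22, 2.17 and 8.52 on the bone marrow arrays, against 9.47, 1.22 and 9.98 on the fetal liver arrays, under the control level on every array. Embryonic liver cells are a known source of Igf2. Alb, which encodes albumin and defines hepatocytes and their precursors, gave 16.3, 4.75 and 2.14 on the bone marrow arrays, against 30.9, 26.4 and 27.6 on the fetal liver arrays, and was not tested; it was singled out after its values were seen. The hepatoblast markers were divided, with 2 of 4 tested genes higher and 1 lower in bone marrow. Krt18, a keratin, averaged 1647 ± 113 in bone marrow against 605 ± 138 in fetal liver, and Afp, alpha-fetoprotein, 221 ± 24.8 in bone marrow against 62.6 ± 12.2 in fetal liver. Apoa2, an apolipoprotein named after its values were seen, went with Alb: it gave 15.5, 8.60 and 21.4 on the bone marrow arrays, against 51.3, 55.2 and 29.8 on the fetal liver arrays (log2 fold change -1.63 ± 0.45 SE, limma adjusted p = 0.0235), and it entered the test through its fetal liver arrays. Apoa1, a related apolipoprotein, was not called on its tested probe set (-0.17, limma adjusted p = 0.816), while 1 of its 3 untested probe sets was at least 2.76-fold lower in bone marrow with no overlap. The list's summed signal, 1893 to 2112 in bone marrow and 661 to 979 in fetal liver, consists mostly of Krt18. The part of liver cells in the Igf2 signal was not tested.

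Igf1r, the kinase receptor for IGF1 and IGF2, was modestly lower in bone marrow. Probe set 1428967_at gave 2949.7, 2723 and 2621 on the bone marrow arrays, against 3702, 3475 and 3763 on the fetal liver arrays. Every bone marrow array lay below every fetal liver array, and the spread within a tissue was small beside the gap. Means were 2765 ± 168 in bone marrow against 3647 ± 152 in fetal liver (SD, n = 3 each), with a log2 fold change of -0.40 ± 0.09 (SE, limma adjusted p = 0.00700) and a 95% interval of -0.59 to -0.21, or 1.32-fold more in fetal liver. Probe set 1426565_at gave 191, 176 and 231 on the bone marrow arrays, against 243, 337 and 436 on the fetal liver arrays, and its log2 fold change was -0.73 ± 0.23 (SE, limma adjusted p = 0.0400). Fetal liver replicate 1 lay only just above the highest bone marrow array, and the second call was lost without any single array other than that one, with limma adjusted p from 0.0560 to 0.153, and without the variance trend (0.0726).

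The remaining Igf1r probe sets pointed the same way without being called. Probe sets 1452982_at and 1446303_at had log2 fold changes of -0.31 ± 0.12 (SE, limma adjusted p = 0.0976) and -0.61 ± 0.24 (SE, limma adjusted p = 0.0913), and neither overlapped between the tissues. Probe set 1452108_at, at -0.32 ± 0.27 (SE, limma adjusted p = 0.419), did overlap. The 5 log2 fold changes therefore ran from -0.73 to -0.31, and their average per array gave -0.47 (limma adjusted p = 0.0216). Median centring added calls for 1452982_at (-0.65, limma adjusted p = 0.00651) and 1446303_at (-0.94, limma adjusted p = 0.0102). Quantile normalization also called 1446303_at (-0.91, limma adjusted p = 0.0158). The endothelial markers summed to 3659 to 4261 in bone marrow and 4813 to 6584 in fetal liver. Of 5 tested 3 were called lower in bone marrow, beside 15.9% of all genes read on their brightest tested probe set. Among the brightest endothelial markers, Tek, the angiopoietin receptor, had -0.49 (limma adjusted p = 0.0131) and Tie1, a related receptor, -0.38 (limma adjusted p = 0.153). Esam, an adhesion protein, went the other way, at 0.48 (limma adjusted p = 0.115). The remaining 2 tested, Egfl7 and Kdr, named after their values were seen, had -1.98 (limma adjusted p = 1.17e-05) and -1.62 (limma adjusted p = 9.36e-04). Untested Cdh5, Lyve1 and Emcn, also named after their values were seen, did not go with Igf1r. Each probe set of Cdh5 and Lyve1 overlapped between the tissues, at signals near or under the control level for Cdh5. Emcn went the other way without overlap, at 32.2, 39.8 and 45.3 on the bone marrow arrays, against 20.6, 5.74 and 19.2 on the fetal liver arrays. Endothelium also expresses Igf1r, and its part in the Igf1r difference was not tested.

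Igf2r, the clearance receptor for IGF2, was not called on either probe set. Probe set 1424111_at gave 247, 559 and 579 on the bone marrow arrays, against 623, 547 and 654 on the fetal liver arrays. Bone marrow replicate 1 stood apart below all other arrays, and the other bone marrow arrays overlapped fetal liver. The log2 fold change was -0.49 ± 0.29 (SE, limma adjusted p = 0.244) with all arrays and -0.092 (limma adjusted p = 0.705) without bone marrow replicate 1. Probe set 1424112_at gave 32.9, 50.1 and 48.4 on the bone marrow arrays, against 62.5, 82.6 and 73.4 on the fetal liver arrays, with no overlap and a log2 fold change of -0.75 ± 0.29 (SE, limma adjusted p = 0.0803). The interval of that difference, -1.39 to -0.11, left out 0 before adjustment. Under median centring both were called, at -0.83 (limma adjusted p = 0.0425) and -1.09 (limma adjusted p = 0.0155). Probe set 1424112_at was also called under quantile normalization (-1.09, limma adjusted p = 0.0252) and without the variance trend (-0.75, limma adjusted p = 0.0448). A further probe set annotated to Igf2r and a second gene was left out by the membership rule.

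Insr, the insulin receptor, was not called. Probe set 1434446_at gave 884, 1039 and 866 on the bone marrow arrays, against 1037, 1189 and 949 on the fetal liver arrays, and the tissues overlapped. Its log2 fold change was -0.19 ± 0.13 (SE, limma adjusted p = 0.333) with a 95% interval of -0.48 to 0.11, which leaves room for a somewhat lower or an almost equal level in bone marrow. Median centring gave -0.52 (limma adjusted p = 0.0263). The other Insr probe sets were untested: 1421380_at lay between 11.7 and 40.2 over the 6 arrays, with overlap, and 1450225_at was under the control level on all 6.

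**Figure D2:**
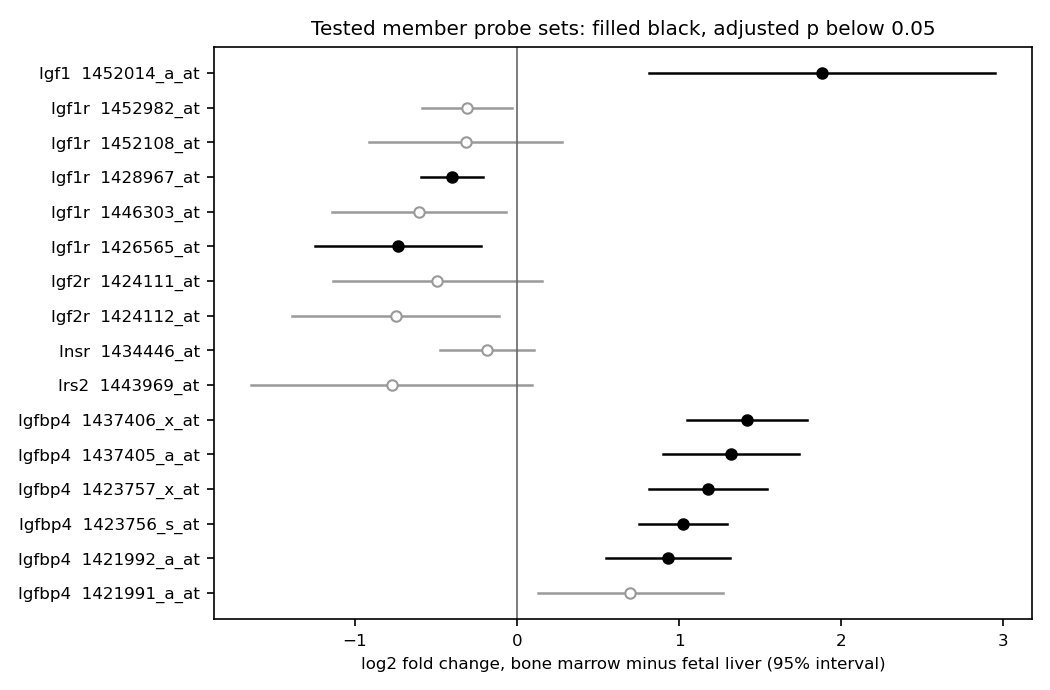
Log2 fold change, bone marrow minus fetal liver, of the 16 tested member probe sets with 95% intervals; filled black points have an adjusted p below 0.05. Igfbp4 and Igf1 lie to the right of 0, and all probe sets of Igf1r, Igf2r, Insr and Irs2 lie to the left, of which 2 were called.

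Of the docking proteins that couple these receptors to PI3K, Irs2 was measured and Irs1 was near the control level. The single Irs2 probe set, 1443969_at, gave 245, 189.7 and 138 on the bone marrow arrays, against 158, 438 and 463 on the fetal liver arrays. Fetal liver replicates 2 and 3 lay above every bone marrow array, whereas fetal liver replicate 1 lay among them. The log2 fold change was -0.77 ± 0.39 (SE, limma adjusted p = 0.175). Without fetal liver replicate 1 it was -1.27 (limma adjusted p = 0.00420), and it was also called under median centring (0.0394). The single Irs1 probe set, 1423104_at, gave 5.41, 20.1 and 13.4 on the bone marrow arrays, against 2.30, 4.90 and 8.64 on the fetal liver arrays. All fetal liver arrays and 1 bone marrow array were under the control level, the tissues overlapped, and the bound on the difference was 1.07-fold.

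Igfbp4, a secreted protein that binds IGFs and mostly restrains them, gave the clearest difference among the members. Of its 6 probe sets 5 were called higher in bone marrow. Probe set 1437405_a_at gave 2045, 2493 and 2422 on the bone marrow arrays, against 1293, 794 and 775 on the fetal liver arrays. No array overlapped, and fetal liver replicate 1 was the highest of its tissue. Means were 2320.1 ± 240.5 in bone marrow against 954 ± 294 in fetal liver (SD, n = 3 each), 2.50-fold higher in bone marrow, with a log2 fold change of 1.32 ± 0.19 (SE, limma adjusted p = 7.18e-04). Probe set 1423756_s_at gave 1634, 2064 and 1769 on the bone marrow arrays, against 927, 934 and 822 on the fetal liver arrays, with a log2 fold change of 1.02 ± 0.12 (SE, limma adjusted p = 2.26e-04). Here the fetal liver arrays lay close together and all were under the lowest bone marrow array.

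Probe sets 1437406_x_at, 1423757_x_at and 1421992_a_at were 2.67-fold, 2.26-fold and 1.91-fold higher in bone marrow (adjusted p = 1.99e-04, 6.01e-04 and 0.00310). The exception was 1421991_a_at, with 209, 207 and 141 on the bone marrow arrays, against 109.9, 88.1 and 147 on the fetal liver arrays. There fetal liver replicate 3 lay above bone marrow replicate 3, and the log2 fold change of 0.70 ± 0.26 (SE, limma adjusted p = 0.0709) was not called; without fetal liver replicate 3 it was 0.89 (limma adjusted p = 0.0483). Over the 6 probe sets log2 fold changes ran from 0.70 to 1.42, and their average per array gave 1.09 (limma adjusted p = 2.29e-04). By Affymetrix naming, the endings _s_at and _x_at mark probe sets that may also detect other transcripts, while the _a_at probe sets detect variants of 1 gene. Stromal cells are a known source of Igfbp4. The stromal markers summed to 485 to 653 in bone marrow and 321 to 495 in fetal liver, so the ranges overlapped. Of the 11 stromal genes, 1 was under the control level on every bone marrow array and 4 on every fetal liver array. Untested markers that went with Igfbp4, named after their values were seen, were Cxcl12, a stromal chemokine, and Col1a1, a collagen chain. The 3 probe sets of Cxcl12 were at least 2.24-fold, 3.48-fold and 2.76-fold higher in bone marrow, and the 2 of Col1a1 at least 3.22-fold and 1.62-fold, all without overlap. On Col1a1, though, the highest fetal liver array lay just under the lowest bone marrow array, at 37.1 against 38.3 and 17.5 against 18.9. Col3a1, a further collagen chain, and Dcn, decorin, also untested, did not go with Igfbp4. Each of their probe sets overlapped between the tissues, with geometric means under the control level in both. Of 3 tested, 1 was higher in bone marrow. Acta2, smooth muscle actin, had 1.71 (limma adjusted p = 0.0340), but bone marrow replicate 1, at 31.2, lay just above the highest fetal liver array, at 29.3. Its call was lost in 7 of 16 settings (limma adjusted p up to 0.135), among them those without bone marrow replicate 2 or 3 or fetal liver replicate 2 or 3. The others were not called: Pdgfrb, a pericyte receptor, had 0.83 (limma adjusted p = 0.190) and Col1a2, another collagen chain, -0.33 (limma adjusted p = 0.248). Their part in the Igfbp4 difference was not tested.

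The other binding proteins were dim. Igfbp7, a matrix-associated protein that binds IGFs weakly, gave 38.1, 33.7 and 33.9 on the bone marrow arrays, against 9.18, 12.03 and 10.3 on the fetal liver arrays on probe set 1423584_at. Every bone marrow array lay above every fetal liver array. The geometric mean in bone marrow was at least 3.18-fold higher, with 2 fetal liver arrays under the control level. Probe set 1423585_at did not show this: it gave 15.6, 19.01 and 26.4 on the bone marrow arrays, against 24.7, 18.97 and 14.6 on the fetal liver arrays. In the fit with no filter, the log2 fold change of 1423585_at was 0.066 ± 0.48 (SE, limma adjusted p = 0.952). That of 1423584_at was 1.76 ± 0.45 (SE, limma adjusted p = 0.0240) in the same fit. The probe sets of Igfbp7 thus disagreed, and 1437804_at was under the control level on all arrays. Igfbp3, the main carrier of circulating IGF, gave 14.7, 10.1 and 5.89 on the bone marrow arrays, against 13.2, 4.37 and 7.88 on the fetal liver arrays on its brighter probe set, and the other was under the control level throughout.

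**Figure D3:**
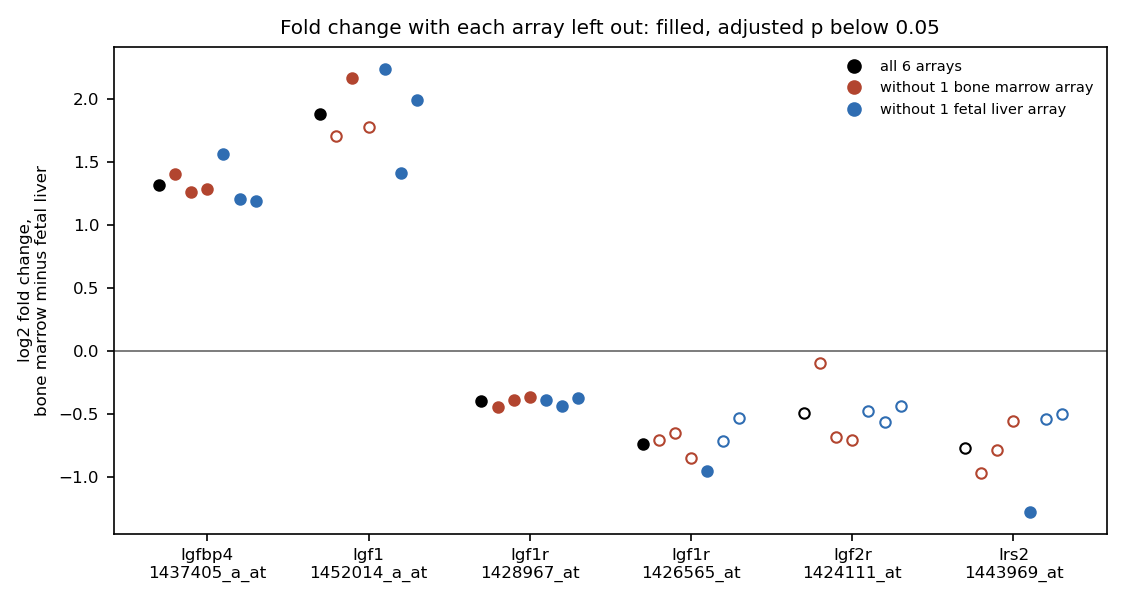
Log2 fold change, bone marrow minus fetal liver, of 6 member probe sets with all 6 arrays (black) and with each bone marrow array (red) or fetal liver array (blue) left out, replicates 1 to 3 from left to right; filled points have an adjusted p below 0.05. Igfbp4 and Igf1r 1428967_at stay filled throughout, whereas the points of Igf1, Igf1r 1426565_at and Irs2 change between filled and open, and Igf2r comes close to 0 without bone marrow replicate 1.

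Further genes that act on IGF ligands and receptors were taken from a list of 29, of which 26 were on the array and 9 had a probe set in the test. The brightest tested probe set stands for each gene. Of the 9, 2 were higher and 3 lower in bone marrow, or 5 called, with a median log2 fold change of 0.086. Among all 11645 genes read this way 33.2% were called, 17.3% higher and 15.9% lower, with a median of -0.041. Mmp9, a matrix protease that can cut IGF-binding proteins, gave 775, 3296 and 3401 on the bone marrow arrays, against 15.6, 1.77 and 21.7 on the fetal liver arrays. It was at least 134-fold higher in bone marrow (limma adjusted p = 1.42e-04), although bone marrow replicate 1 stood far below the other bone marrow arrays. Granulocytes are rich in Mmp9, and granulocyte markers summed to 47822 to 60544 in bone marrow and 5903 to 7534 in fetal liver. Their part was not tested. Among them the log2 fold change of S100a9, a calcium-binding protein, was 5.05 (limma adjusted p = 2.38e-05), Lyz2, lysozyme, 1.46 (limma adjusted p = 8.40e-05) and Mpo, myeloperoxidase, 0.84 (limma adjusted p = 3.37e-04). Furin, the protease that cleaves the precursors of IGF1R and the insulin receptor, averaged 4129 ± 36.5 in bone marrow against 2253 ± 267 in fetal liver (log2 fold change 0.88 ± 0.10 SE, limma adjusted p = 1.80e-04).

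Stc2, a stanniocalcin that blocks the IGFBP4-cutting protease PAPP-A, was low in bone marrow. It gave 11.5, 10.2 and 13.9 on the bone marrow arrays, against 431, 324 and 418 on the fetal liver arrays, 32.96-fold more in fetal liver (log2 fold change -5.04 ± 0.26 SE, limma adjusted p = 1.26e-06). Its bone marrow arrays straddled the control level. Pappa itself had no tested probe set. The RNA-binding proteins named for binding Igf2 mRNA were also lower: Igf2bp3 averaged 56.2 ± 7.46 in bone marrow against 1148 ± 86.5 in fetal liver, and Igf2bp1 was at least 123-fold lower in bone marrow (adjusted p = 2.14e-07). Mmp9, Stc2 and Igf2bp1 had 1 tissue near or under the control level, so they entered the test through the other. The 4 genes not called were Insrr, an insulin receptor relative, at 0.47; Adamts1, a protease, at -0.46; Cpd, carboxypeptidase D, at 0.12; and M6pr, the second mannose 6-phosphate receptor, at 0.086. Of the 17 untested genes, among them Ins2, Igfbp1, Igfbp2, Igfbp5 and Igfbp6, 7 were under the control level on every array on their brightest probe set. H19, the gene next to Igf2, shares its probe set's annotation with a second gene and was not analysed here.

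Downstream of the receptors, 40 genes of adaptors, PI3K, AKT, mTOR, FOXO and the brakes on insulin signalling were listed, 37 were on the array and 35 tested. Of these 9 were higher, 5 lower and 21 not called, with a median log2 fold change of 0.057, beside 33.2% called among all genes. Without bone marrow replicate 1 or fetal liver replicate 2, 9 were called. The direction depended on scaling: centring each array on its median gave 5 higher and 13 lower, while quantile normalization gave 7 higher and 5 lower. The 8 with the smallest adjusted p are given next, 6 higher and 2 lower in bone marrow. Socs3, which blocks cytokine and insulin receptor signalling, averaged 759 ± 231 in bone marrow against 40.9 ± 16.02 in fetal liver (log2 fold change 4.23 ± 0.31 SE, limma adjusted p = 1.03e-05). Ddit4, an mTORC1 inhibitor induced by stress, averaged 4657 ± 362 in bone marrow against 982 ± 233 in fetal liver (log2 fold change 2.27 ± 0.17 SE, limma adjusted p = 1.03e-05).

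For Deptor, which binds and inhibits mTOR, the log2 fold change was 1.08 ± 0.21 (SE, limma adjusted p = 0.00444). Sesn1, a sestrin that restrains mTORC1, had 0.91 ± 0.18 (SE, limma adjusted p = 0.00528). Sh2b2, an adaptor of the activated insulin receptor, had 1.97 ± 0.25 (SE, limma adjusted p = 3.08e-04). Foxo1, the transcription factor excluded from the nucleus by AKT, had 0.71 ± 0.14 (SE, limma adjusted p = 0.00484) on its brightest probe set, but its other 3 tested probe sets were not called, and their average with it gave 0.15 (limma adjusted p = 0.643); it also lost its call under median centring (0.0542). Lower in bone marrow were Grb10, an imprinted adaptor that binds and inhibits the insulin and IGF1 receptors, and Pik3cb, a catalytic subunit of PI3K. Grb10 averaged 2588 ± 582 in bone marrow against 5187 ± 422 in fetal liver (log2 fold change -1.03 ± 0.16 SE, limma adjusted p = 9.97e-04), and bone marrow replicate 1 was the lowest array. Pik3cb averaged 730.1 ± 27.3 in bone marrow against 1279 ± 154 in fetal liver (log2 fold change -0.80 ± 0.12 SE, limma adjusted p = 0.00109), and no array overlapped.

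**Figure D4:**
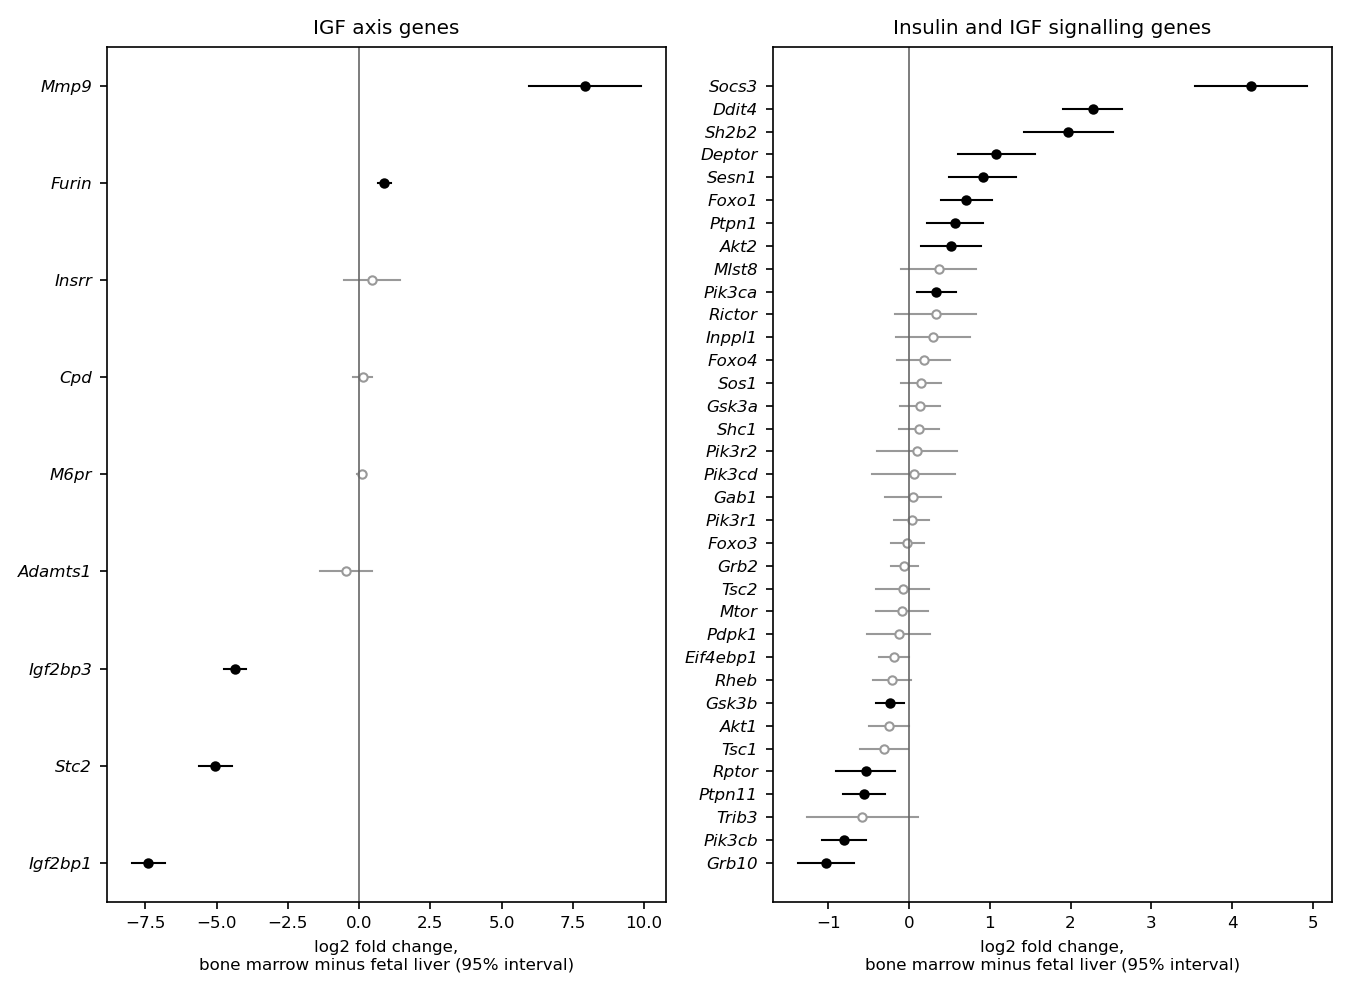
Log2 fold change, bone marrow minus fetal liver, with 95% intervals, for the tested genes of the IGF axis list (left, 9 genes) and of the signalling list (right, 35 genes), on the brightest probe set of each gene; filled black points have an adjusted p below 0.05. The axis at left is wider, and there Mmp9 and Igf2bp1 lie farthest from 0. Each stands against a tissue whose geometric mean was under the control level, so those points are not exact sizes. Most signalling genes lie within 1 unit of 0.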

How the data were processed

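The deposited values are linear intensity signals of probe sets. Per the submitters' processing notes they came from MAS5, whose version was not stated in the sources used here. Every array had the same mean, 500, once 2% was trimmed from each end; no arrays were identical. Of 45101 rows 64 were controls, and 34945 of the other 45037 had 1 gene symbol, 932 several and 9160 none. All 142 listed genes found matched a RefSeq table by Entrez identifier.

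Signals were log2-transformed with no offset. limma (3.58.1, R 4.3.3) fitted tissue alone on 27022 filtered probe sets, with 4 residual degrees of freedom, an intensity-trended prior and Benjamini-Hochberg adjustment. Folds are ratios of geometric means. Against a group below the control level, "at least" uses that group's geometric mean after raising its arrays to the level where they were under it. An exact permutation test of 3 against 3 arrays cannot go below 0.1 and was not used. The number of arrays limits the precision.

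Members and lists were chosen with earlier results of these data known. Named genes were all members, tested IGF axis genes, the 8 signalling genes of smallest adjusted p, sort markers and the 3 brightest markers of each list. Alternatives varied the filter, scaling, offset, floor, probe set choice, prior, replicate block and arrays. The fit was tested on simulated data in which 200 of 27022 probe sets were changed, fewer than were called here. It recovered 51% of 2-fold and 82% of 4-fold changes, with 7 false calls. With so few changed, a call needs a smaller raw p-value than in the data, so these shares do not carry over. In the data, differences under 2-fold were called on some probe sets and not on others. Igf1r gave a call at 1.32-fold on 1428967_at and none at 1.24-fold on 1452982_at. Figures used Python 3.11.15 and matplotlib 3.10.9.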

Additional observations from a re-analysis of the deposited data

How the results depend on the processing

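Of all probe sets 7237 were called (55.9% higher in bone marrow). Median centring gave 12515 (21.3% higher) and moved the median log2 fold change to -0.34; quantile normalization gave 7695 (44.3% higher). With 1 probe set a gene 4208 were called, when the probe sets of each gene were averaged 4201, and leaving out single arrays gave 4610 to 7761, the lowest without bone marrow replicate 3. The 8 calls among members were 14 under median centring, and 3 genes with 1 probe set a gene or the mean. With no filter 12 of the 29 member probe sets were called, 9 higher and 3 lower in bone marrow, beside 7324 of all 45037. The 5 IGF axis calls fell to 2 of 4 genes tested under the filter at the 60th percentile. The 14 signalling calls were 9 to 11 with an array left out. No tested member probe set changed direction under any alternative.

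Replicate numbers did not pair the arrays: deviations of same-numbered arrays correlated at 0.0013, 0.111 and -0.162, and only replicate 2 correlated best with its own number. The replicate block gave 6904 calls, 8 among members, 5 in the IGF axis and 11 in signalling.

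Directions changed for uncalled genes. Under median centring log2 fold changes were -0.25 for M6pr, -0.22 for Cpd, -0.26 for Slamf1, -0.18 for Pf4, -0.19 for Tfrc and -0.11 for Cd79b. Itga2b was 0.085 under quantile normalization and -0.22 to 0.12 with single arrays left out. The same ranges were -0.42 to 0.37 for Slamf1, -0.038 to 0.20 for Cpd, -0.022 to 0.29 for Pf4 and -0.61 to 0.080 for Apoa1. The cause was not tested. Dim probe sets limit Igf2, Irs1, Igfbp3 and Igfbp7, whose bounds depend on the control level.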

Other observations

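Lineage markers not named above gave these values. The log2 fold change of Slc4a1, the red cell anion exchanger, was 3.56 (limma adjusted p = 8.62e-05), Alas2, the erythroid haem synthesis enzyme, 4.11 (limma adjusted p = 9.01e-05) and Tfrc, the transferrin receptor, 0.14 (limma adjusted p = 0.25). Ebf1, a B-cell transcription factor, had 5.24 (limma adjusted p = 2.07e-06), Vpreb1, a surrogate light chain, 1.94 (limma adjusted p = 5.14e-04) and Cd79b, a receptor chain, 0.23 (limma adjusted p = 0.204). Of the megakaryocyte genes, Pf4, a platelet chemokine, had 0.16 (limma adjusted p = 0.432), Itgb3, an integrin chain, -0.40 (limma adjusted p = 0.131) and Vwf, von Willebrand factor, 0.66 (limma adjusted p = 0.0966). The Itgb3 difference was called without fetal liver replicate 1 (-0.61, limma adjusted p = 0.00568).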
